A study of Mus musculus with 16 samples.

Results

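The Rab GTPases are a family of small membrane-bound switches that direct vesicle traffic, and 59 of the 32166 genes in the deposited gene table carry a mouse Rab symbol of the form Rab, a number and an optional letter from a to d. Effectors, regulators and pseudogene names were left out by that rule, which used no measured value. Of the 59 genes, 54 reached 1 CPM (read counts scaled to library size) in at least 2 libraries and were tested. The remaining 5 were Rab17, Rab19, Rab25, Rab42 and Rab7b, whose highest values in any library were 1.48, 0.246, 6.81, 0.275 and 3.92 CPM.

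The libraries are polyA RNA-seq profiles of photoreceptors from mouse retinal organoids, which are three-dimensional cultures that form layered retina from pluripotent stem cells. All 16 libraries share the Nrlp-GFP genotype, in which the promoter of Nrl, the transcription factor that sets rod fate, drives a green fluorescent protein, and all come from cells sorted for that fluorescence. The organoids came from induced pluripotent stem cells (iPSC, made from embryonic fibroblasts of the same mice with Oct3/4, Sox2, Klf4 and c-Myc in doxycycline-inducible lentiviral vectors) or from embryonic stem cells (ESC, cloned from the blastocyst inner cell mass of Nrl-GFP mice), and all cultures received retinoic acid and taurine. Day 18 has 2 iPSC and 3 ESC libraries, day 21 has 1 and 3, day 25 has 2 and 1, and days 28 and 35 have 1 of each source. Whether libraries of a group are separate cultures is not stated, and the p-values reflect the spread among these libraries alone, which could be technical. In sorted bulk samples, fewer cells of a type and less RNA per cell cannot be told apart.

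A Rab is off when bound to GDP and on when bound to GTP. Exchange factors load GTP, GTPase-activating proteins speed its hydrolysis, escort proteins deliver the new Rab for attachment of lipid tails to its last cysteines, and each active Rab recruits its own effectors to one membrane. Rods make rhodopsin in the inner segment and send it through the connecting cilium to the outer segment. Rab11a and Rab8a act in sequence on the rhodopsin carriers that leave the trans-Golgi, a route worked out mainly in frog rods. Rab28 is found at the base of the outer segment, is required for normal shedding of cone outer segment discs in mice, and is mutated in human cone-rod dystrophy.

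Several libraries stood apart before any Rab was considered. The day 18 libraries labelled iPSC replicate 1 and ESC replicate 1 had the proliferation gene Mki67 at 462 and 406 CPM and little Nrl, 17.7 CPM in the ESC library and less in the iPSC library, and they were the most alike pair of the series (Pearson r = 0.992 across genes). A sum of chi-square terms per degree of freedom of 8.72 between them shows that they differ by more than counting error. Y-linked genes go against the source in 3 libraries: the mean of Ddx3y, Eif2s3y and Uty was 42.2 CPM in iPSC day 18 replicate 2 and 11.5 CPM in iPSC day 25 replicate 1, against 0.625 to 1.48 CPM in the other iPSC libraries, and 0.927 CPM in ESC day 18 replicate 1, against 25.6 to 73.8 CPM in the other ESC libraries. The ESC day 35 library carried RNA of Müller glia and bipolar cells: the 7 listed Müller glia markers summed to 126 CPM in iPSC day 35 and 1165 CPM in ESC day 35, and the 7 bipolar markers to 87.6 and 396 CPM. The 6 listed cone markers summed to between 15.0 CPM (iPSC day 35) and 543 CPM (ESC day 21 replicate 3), although 1 of them, Opn1mw, was listed at 0 in all 16 libraries. The 6 pigment epithelium markers summed to 16.6 CPM in iPSC day 35 and 118 CPM in ESC day 35, with Rpe65 at 0 and 0.0454 CPM. Their sum does not set ESC day 35 apart, since it was 118 CPM in ESC day 21 replicate 1 and 119 CPM in replicate 3. The 4 microglia markers summed to at most 1.60 CPM in any library.

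Rab28 had the smallest adjusted p of the family at day 35, and its coding transcripts moved unequally over days. Rab28 lies on the minus strand of chr5:41624976-41708157 (GRCm38). Its annotated coding transcripts include ENSMUST00000201422, with 8 exons, and ENSMUST00000031011, with 7. They share the first 191 codons and differ in how the protein ends. In the longer transcript a cassette exon of 95 bases (exon 7, chr5:41626987-41627081) supplies the last 29 codons and the stop. When that exon is skipped, the following exon is read instead and supplies 30 codons. The predicted proteins are 220 and 221 residues long. The coding ends are shown because they are all that separates the proteins of the forms whose ratio moved with day. They are written 5′ to 3′ in the sense of the transcript, with the stop codon in capitals, and were read from the GENCODE vM21 transcripts.

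Exon included, chr5:41626992-41627081, minus strand: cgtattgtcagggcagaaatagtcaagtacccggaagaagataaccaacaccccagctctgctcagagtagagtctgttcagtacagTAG
Exon skipped, chr5:41625770-41625862, minus strand: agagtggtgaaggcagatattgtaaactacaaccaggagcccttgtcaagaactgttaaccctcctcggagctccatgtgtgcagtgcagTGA

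Each ending holds 1 cysteine codon, and in both it is the codon 4 places before the stop, the place of the lipid-bearing cysteine in a CAAX-type tail. The stretches before it differ. Most Rabs end instead in a pair of cysteines, and Rab28 is an exception in the family.

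The exon-included transcript stood at 9.40 and 22.5 TPM (transcript abundance per unit length, scaled to library size) in the iPSC libraries and 7.45, 7.12 and 9.39 TPM in the ESC libraries at day 18. At day 21 it was 16.3 TPM in iPSC and 12.9, 17.3 and 26.9 TPM in ESC. At day 25 it was 20.5 and 49.4 TPM in iPSC and 26.7 TPM in ESC. It reached 85.0 TPM in iPSC and 40.1 TPM in ESC at day 28, and 125 TPM in iPSC and 121 TPM in ESC at day 35. The lowest day 35 value is over every value of the earlier days, and both sources end at nearly the same level.

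The exon-skipped transcript was 63.5 and 98.7 TPM in iPSC and 56.2, 68.0 and 56.4 TPM in ESC at day 18, averaged 107 ± 22.8 TPM at day 21 (SD, n = 4) and 123 ± 14.5 TPM at day 25 (SD, n = 3), and was 137 TPM in iPSC and 95.2 TPM in ESC at day 28. At day 35 it was 147 TPM in iPSC and 69.7 TPM in ESC, so the ESC library lay within the range of day 18. As a share of both forms, the exon-included transcript made up 13.4% ± 3.39 at day 18 (SD, n = 5), 14.5% ± 1.42 at day 21 (n = 4) and 20.1% ± 5.57 at day 25 (n = 3). It made up 38.2% in iPSC and 29.6% in ESC at day 28, and 45.9% in iPSC and 63.5% in ESC at day 35. Each library of days 28 and 35 is over the highest earlier share of 26.1%.

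Transcript levels were tested with limma on log2(TPM + 1) over 37345 transcripts of genes held whole in the transcript table, an analysis added after the values had been seen. For day 35 against day 18, 1.26% of all these transcripts passed an adjusted p of 0.05 (0.991% upward), and 2 of 147 Rab transcripts did, both of Rab28. The exon-included form rose by 3.43 on the log2 scale (SE 0.42, adjusted p = 0.00478) and was higher in 2 of 2 day 35 libraries than in all 5 of day 18. The exon-skipped form differed by 0.55 (SE 0.27, adjusted p = 0.40), which did not pass. Over all days the exon-included form rose by 0.20 log2 units per day (SE 0.02, adjusted p = 0.000379), where 2.6% of transcripts (1.96% upward, 0.643% downward) and 4 of 147 Rab transcripts passed. Both calls on the exon-included form held in all 16 fits that left out 1 library, with adjusted p up to 0.047 for day 35 and 0.00368 for the trend, and without the pair of low-Nrl libraries.

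The ratio itself was tested as log2 of a transcript's TPM over that of the rest of its gene. The trend over days was 0.15 per day for the exon-included form (SE 0.02, adjusted p = 0.00828) and -0.14 per day for the exon-skipped form (SE 0.02, adjusted p = 0.00724). Of all 35519 transcripts tested this way 0.135% passed (0.0394% upward), and of 140 Rab transcripts these 2 did. The 2 ratios are not independent, since each form is part of the rest for the other, so they are not separate results. The ratio trend of the exon-included form missed the threshold without ESC day 35 (0.12 per day, adjusted p = 0.0766), without the low-Nrl pair (0.15 per day, adjusted p = 0.0622) and with a pseudocount of 0.1 (0.15 per day, adjusted p = 0.0634). For day 35 against day 18 the ratio difference of 2.47 (SE 0.39) had an adjusted p of 0.0523, where 0.0282% of transcripts (0.00845% upward, 0.0197% downward) and no Rab transcript passed with limma. At an unadjusted p that contrast gave 1.91e-05 for the exon-included form. Nothing but the cassette exon, its junctions and the ends of the annotations separates these forms, so each TPM is a model estimate.

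**Figure D1:**
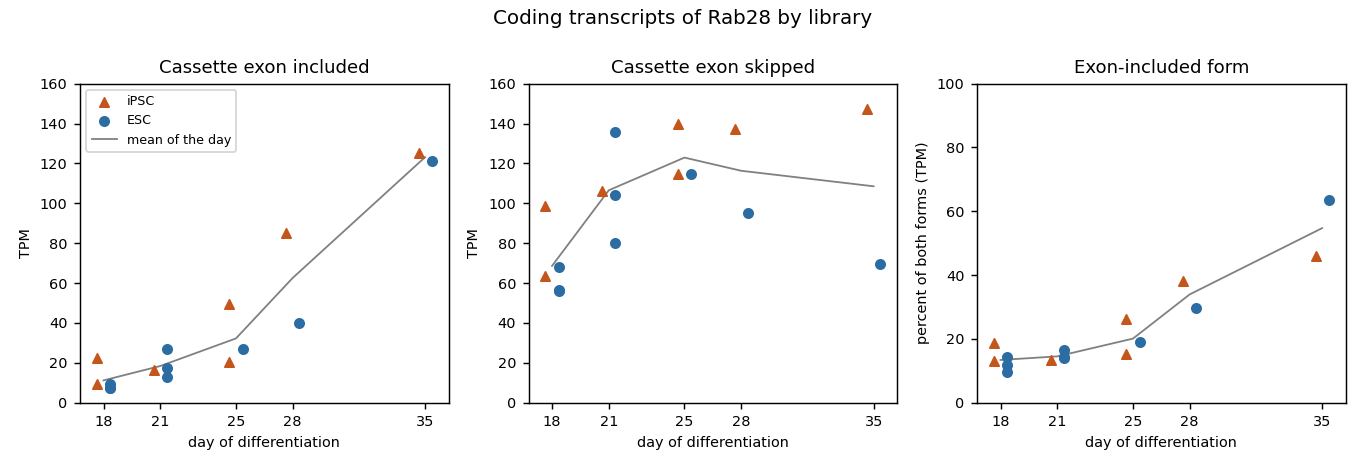
Rab28 transcripts by day of differentiation; triangles are iPSC libraries, circles ESC libraries, and the line joins the mean of each day. The left and middle panels give TPM of the forms with and without the cassette exon on the same scale, and the right panel the exon-included form as a percentage of both, which is 29.6% to 63.5% at days 28 and 35 and at most 26.1% before.

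Annotated retained-intron transcripts of Rab28 also moved. ENSMUST00000201473, which overlaps the cassette exon and its introns, rose by 1.70 for day 35 against day 18 (SE 0.34, adjusted p = 0.0307), and its share of the gene had a difference of 0.09 (SE 0.32, adjusted p = 0.983). ENSMUST00000200702, which also overlaps the exon, rose by 0.23 per day (SE 0.04, adjusted p = 0.0108), on estimated counts of at most 77 per library.

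Summed over transcripts, Rab28 was 51.2 and 96.3 CPM in iPSC and 43.0, 47.1 and 49.0 CPM in ESC at day 18. It was 90.9 CPM in iPSC and 67.0, 101 and 143 CPM in ESC at day 21, and 101 and 154 CPM in iPSC and 117 CPM in ESC at day 25. At day 28 it was 187 CPM in iPSC and 109 CPM in ESC, and at day 35 it was 236 CPM in iPSC and 132 CPM in ESC. All libraries from day 25 on are above all 5 of day 18, and iPSC day 18 replicate 2 stands far above the other 4. Per unit length, Rab28 ranked between 7 and 10 among the 43 Rab genes with whole transcript sets in the day 18 libraries, at 74.1 to 142 TPM, and between 1 and 4 at days 28 and 35, at 153 to 353 TPM. In iPSC day 35 it was the highest of the 43.

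Across the family, 3 of 54 tested members passed an adjusted p of 0.05 in limma for day 35 against day 18, where 7.53% of all 15202 tested genes did (4.54% upward, 2.99% downward). All 3 rose: Rab28, the Golgi Rab Rab30 and the neuronal Rab Rab39b. The members' share of 5.56% is near the background. An unadjusted p under 0.05 was found for 15 of the 54 members and for 3842 of all tested genes. Their median log2 fold change was 0.09, beside 0.05 over all tested genes, with 31 members above 0 and 23 below, and 37 of 54 lay within 0.5 of 0. The comparison rests on 2 day 35 libraries, and without either of them 1 library is left at that day. Calls lost in those fits are given for each gene below. Without iPSC day 18 replicate 2, 5 Rab genes passed, where 9.61% of all tested genes did. None passed without the low-Nrl pair, where 0.993% of all tested genes did. The day contrasts share the 5 day 18 libraries.

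**Figure D2:**
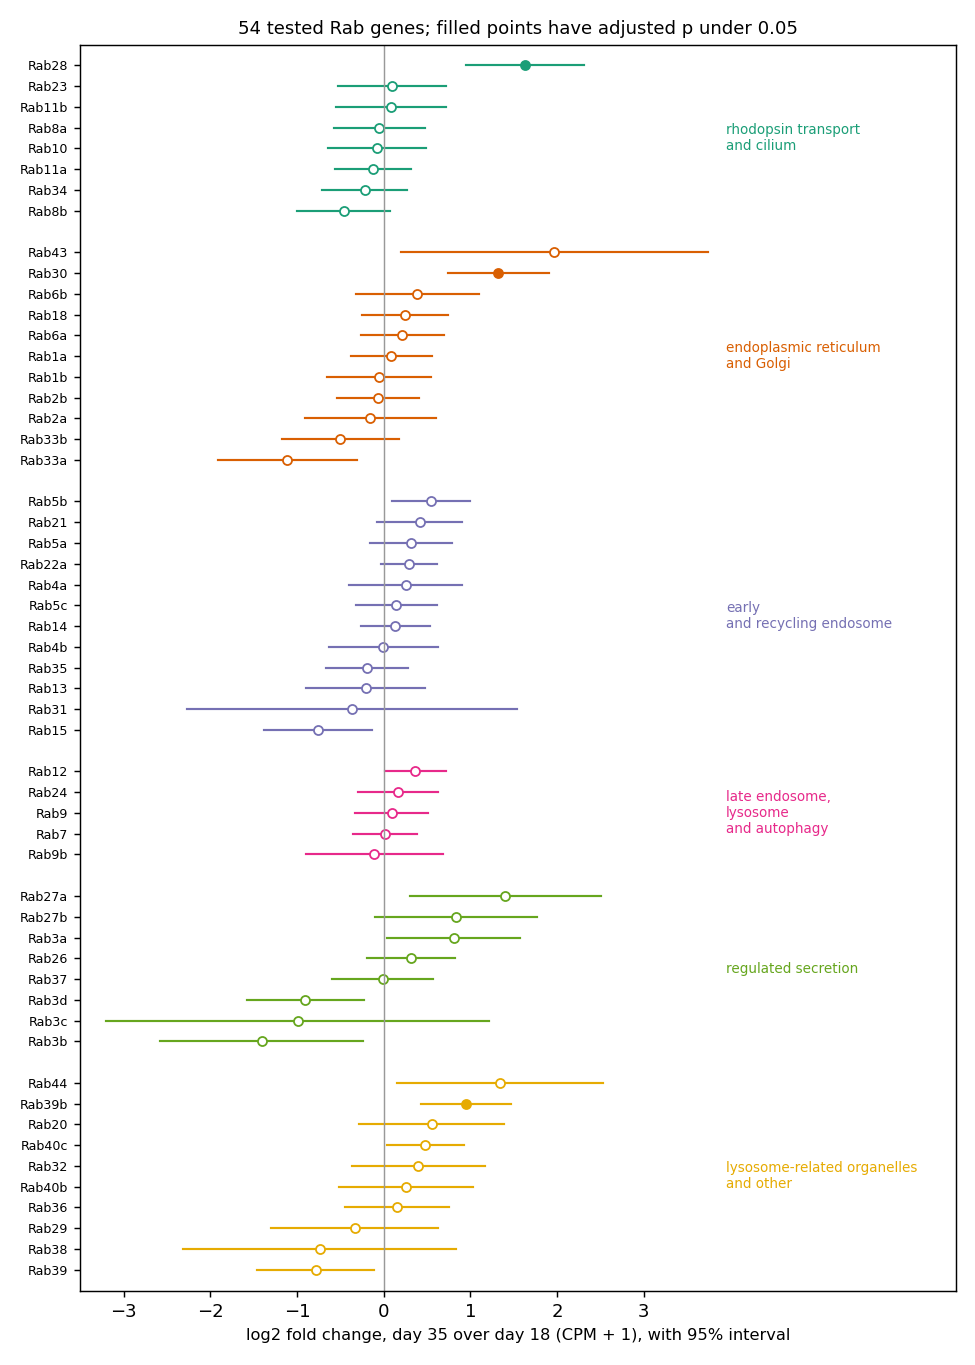
Log2 fold change of day 35 over day 18 (CPM + 1) for the 54 tested Rab genes, grouped by the compartment or role each is best known for, with 95% intervals from limma. Filled points are the 3 genes with adjusted p under 0.05, Rab28 at 1.63, Rab30 at 1.32 and Rab39b at 0.95.

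Rab28 rose by 1.63 (SE 0.32, 95% interval 0.95 to 2.31, adjusted p = 0.0131). The call was lost without iPSC day 35 (1.39, adjusted p = 0.12) and without the low-Nrl pair (1.45, adjusted p = 0.0771). Over all days, limma gave Rab28 a trend of 0.09 log2 units per day (SE 0.02, adjusted p = 0.00672), and this call held in each of the 16 fits without 1 library, at an adjusted p of at most 0.0397.

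Rab30, a Golgi Rab, was 25.4 and 30.4 CPM in iPSC and 19.8, 14.4 and 16.3 CPM in ESC at day 18, then 36.0 CPM in iPSC and 24.9, 22.4 and 31.3 CPM in ESC at day 21. It was 28.5 and 60.4 CPM in iPSC and 33.5 CPM in ESC at day 25, 62.6 CPM in iPSC and 64.4 CPM in ESC at day 28, and 56.2 CPM in iPSC and 52.4 CPM in ESC at day 35. The 4 libraries of days 28 and 35 are above all 5 of day 18, and the sources lie close together at both days. Its rise was 1.32 at day 35 (SE 0.27, adjusted p = 0.0166). That call was lost without ESC day 35 (1.15, adjusted p = 0.0806), without iPSC day 35 (1.49, adjusted p = 0.0636) and without the low-Nrl pair (1.38, adjusted p = 0.0646).

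Rab30 was also the 1 Rab that passed for day 28 against day 18, at 1.55 (SE 0.27, adjusted p = 0.0396), where 0.579% of all genes passed (0.507% upward, 0.0724% downward). That call was lost in 9 of the 16 fits without 1 library, with adjusted p of 0.0546 to 0.476, and in edgeR (1.14, adjusted p = 0.0797). The trend over days, 0.09 per day (SE 0.02, adjusted p = 0.00521), held in all 16, at an adjusted p of at most 0.0138. Its main coding transcript, ENSMUST00000032879, rose by 0.06 per day (SE 0.02, adjusted p = 0.0377) and stood at 14.1 TPM in iPSC and 16.2 TPM in ESC at day 35, against 7.40 and 9.22 TPM in iPSC and 5.76 to 6.18 TPM in ESC at day 18. That transcript did not pass for day 35 against day 18. All Rab30 transcripts together were 26.5 TPM in iPSC and 29.1 TPM in ESC at day 35.

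Rab39b, a neuronal Rab whose loss causes intellectual disability with early parkinsonism in humans, lay between 15.3 and 25.2 CPM in all 14 libraries of days 18 to 28, and was 44.1 CPM in iPSC and 34.6 CPM in ESC at day 35. Both day 35 libraries are above every other library. The rise was 0.95 (SE 0.24, adjusted p = 0.0323). It was called in 11 of the 16 fits without 1 library and lost without either low-Nrl library, ESC day 18 replicate 3 or either day 35 library, with log2 fold changes of 0.88 to 1.03 and an adjusted p of up to 0.192. It was also lost without the low-Nrl pair (adjusted p = 0.107) and without the Y-linked pair (adjusted p = 0.057). Its trend was 0.05 per day (SE 0.01, adjusted p = 0.0264), lost without ESC day 35 (adjusted p = 0.0746), without iPSC day 35 (adjusted p = 0.158) and with CPM scaled to equal sums (adjusted p = 0.0583). An annotated antisense gene, Gm15063, overlaps Rab39b on the other strand and is not in the gene table used here.

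The trend over days called 6 of 54 Rab genes (11.1%), where 12.1% of all tested genes passed, 6.81% upward and 5.29% downward. Rising were Rab28, Rab30 and Rab39b, and falling were Rab3b, Rab3d and Rab33a. The count was 3 without ESC day 18 replicate 3 or ESC day 28, 12 without ESC day 35, 2 without iPSC day 35 and 4 without the low-Nrl pair. The share of all genes called moved too: without ESC day 35 it was 22.1% (Rab genes 23.1%), and without iPSC day 35 it was 3.66% (Rab genes 3.7%). Of all genes, 9.2% passed without ESC day 18 replicate 3 (Rab genes 5.56%) and 10.9% without ESC day 28 (Rab genes 5.56%). Without the low-Nrl pair 5.26% passed (Rab genes 7.55%). The edgeR test, run on the 40 Rab genes with whole transcript sets and enough counts, called 4 (10.0%), where 13.5% of its 9316 tested genes passed. On the same genes DESeq2 called 7 Rab genes (17.5%), where 21.4% passed. In both, Rab28 and Rab30 rose and Rab3b and Rab3d fell. Rab33a and Rab39b are not among those 40.

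**Figure D3:**
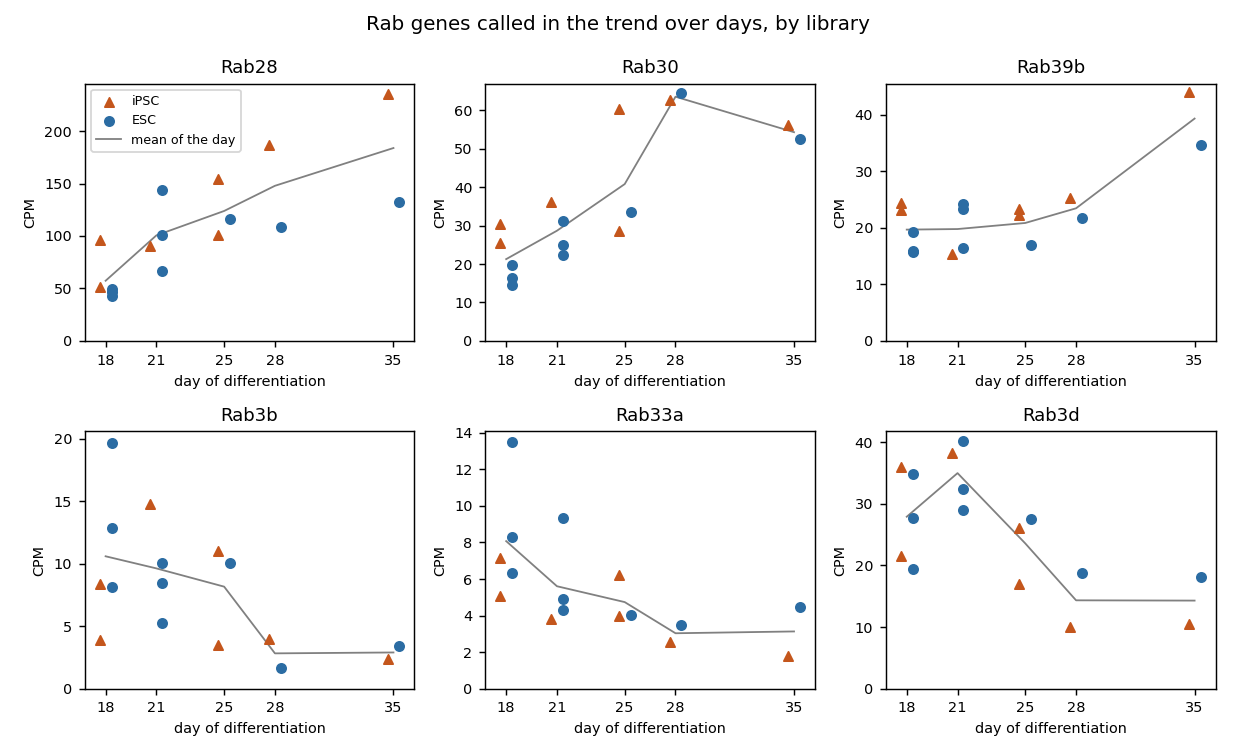
CPM of the 6 Rab genes called in the trend over days, by library; triangles are iPSC, circles ESC, and the line joins the mean of each day. Rab28, Rab30 and Rab39b end above all day 18 libraries, and Rab3b, Rab3d and Rab33a end below all of them.

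Rab3 proteins ride on synaptic and secretory vesicles and set their release, and the 4 paralogs had unlike values. Rab3b was 2.39 CPM in iPSC and 3.40 CPM in ESC at day 35, against 8.38 and 3.92 CPM in iPSC and 8.17, 19.7 and 12.8 CPM in ESC at day 18. Rab3d was 10.4 CPM in iPSC and 18.2 CPM in ESC at day 35, against 21.5 and 35.9 CPM in iPSC and 19.5, 27.8 and 34.9 CPM in ESC at day 18. For both genes the day 35 libraries lie below all of day 18, while Rab3d was at 29.0 to 40.2 CPM at day 21.

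Rab3b fell by 0.10 per day (SE 0.03, adjusted p = 0.0465) and Rab3d fell by 0.07 per day (SE 0.02, adjusted p = 0.0324). Rab3b kept its call in 4 of the 16 fits without 1 library, with an adjusted p of up to 0.133. For Rab3d the call was lost when any of 4 libraries was left out (iPSC day 18 replicate 2, iPSC day 35, the third ESC replicate of day 18 and ESC day 28), with an adjusted p of up to 0.138, and with no filter on low values (adjusted p = 0.0505). Day 35 against day 18 gave -1.41 for Rab3b (SE 0.55, adjusted p = 0.125) and -0.90 for Rab3d (SE 0.31, adjusted p = 0.0911), neither called by limma or edgeR. DESeq2 called both lower (Rab3b -1.98, adjusted p = 0.0211, and Rab3d -0.89, adjusted p = 0.0398).

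Rab3a, the main Rab of synaptic vesicles, had higher values at day 35, at 95.8 CPM in iPSC and 66.1 CPM in ESC, against 29.3 and 63.5 CPM in iPSC and 36.1, 51.3 and 55.0 CPM in ESC at day 18. Both day 35 values are above all of day 18, though ESC day 21 replicate 3 was higher still at 105 CPM. The difference of 0.81 (SE 0.36, adjusted p = 0.175) did not pass, and its trend over days passed without ESC day 35 and without that day 21 library. Rab3c was 2.20 CPM in iPSC and 53.1 CPM in ESC at day 35, against 13.0 to 53.8 CPM at day 18, so the day 35 libraries lie at opposite ends. Its difference was -0.99 (SE 1.03, adjusted p = 0.584), and 1.08 without iPSC day 35.

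Rab33a, a Golgi-derived vesicle Rab of neurons, was 1.77 CPM in iPSC and 4.49 CPM in ESC at day 35, against 7.15 and 5.09 CPM in iPSC and 8.33, 6.31 and 13.5 CPM in ESC at day 18. The groups do not overlap. It fell by 0.07 per day (SE 0.02, adjusted p = 0.0371). The call was kept in 8 of the 16 fits without 1 library, at an adjusted p of up to 0.141, and lost without the low-Nrl pair (adjusted p = 0.129). The day 35 contrast was -1.11 (SE 0.37, adjusted p = 0.0823). Its paralog Rab33b, which acts in autophagosome formation, was 10.2 CPM in iPSC and 18.3 CPM in ESC at day 35, against 15.5 to 24.1 CPM at day 18, with a difference of -0.50 (SE 0.31, adjusted p = 0.344).

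The Rabs of the rhodopsin carrier route were expressed from the first day sampled and, over all 16 libraries, did not pass in limma. Without ESC day 35, Rab8b and Rab10 passed in the trend, downward. Of the 8 members grouped with rhodopsin transport and the cilium, Rab28 was the 1 that was called, and their median log2 fold change at day 35 was -0.06. Rab11a, which acts on the carriers as they form, was 68.6 CPM in iPSC and 102 CPM in ESC at day 35, against 88.2 and 95.5 CPM in iPSC and 74.6, 116 and 88.9 CPM in ESC at day 18. The iPSC value is below all of day 18 and the ESC value within its range. The difference was -0.12 (95% interval -0.56 to 0.32, adjusted p = 0.753) and turned to 0.14 without iPSC day 35.

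Rab8a, which brings the carriers to the base of the cilium, was 35.0 CPM in iPSC and 47.3 CPM in ESC at day 35, against 41.2 and 56.4 CPM in iPSC and 44.6, 41.8 and 31.0 CPM in ESC at day 18. The groups overlap. Its highest values were 58.2 CPM in iPSC and 61.9 CPM in ESC at day 28, both above all of day 18, with a day 28 difference of 0.50 (SE 0.24, adjusted p = 0.248). The day 35 difference was -0.05 (95% interval -0.57 to 0.47, adjusted p = 0.917) and turned to 0.18 without iPSC day 35, 0.08 without iPSC day 18 replicate 2 and 0.13 without the Y-linked pair.

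The paralogs gave a similar picture. Rab11b was 134 CPM in iPSC and 90.6 CPM in ESC at day 35, against 86.8 to 128 CPM at day 18, a difference of 0.08 (SE 0.29, adjusted p = 0.885) that turned to -0.07 with CPM scaled to equal sums and to -0.33 without iPSC day 35. Rab8b was 21.4 CPM in iPSC and 29.0 CPM in ESC at day 35, against 25.2 to 46.9 CPM at day 18, a difference of -0.46 (SE 0.25, adjusted p = 0.273). Rab10, which can stand in for Rab8 in ciliary traffic in cultured mammalian cells, differed by -0.07 (SE 0.26, adjusted p = 0.888). Rab23, a cilium-linked regulator of Hedgehog signalling, differed by 0.10 (SE 0.29, adjusted p = 0.864), and Rab34, which acts in building the ciliary vesicle, by -0.22 (SE 0.23, adjusted p = 0.581). Per unit length, over all 16 libraries, of which 9 are from days 18 and 21, Rab11a averaged 239 ± 45.3 TPM (SD, n = 16), below Rab2a of the early secretory route at 293 ± 85.7 TPM and above Rab1a at 214 ± 29.0 TPM. These spreads overlap, and among the 43 Rab genes with whole transcript sets Rab11a ranked from 1 to 3 in the day 18 libraries and from 1 to 5 at day 35.

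**Figure D4:**
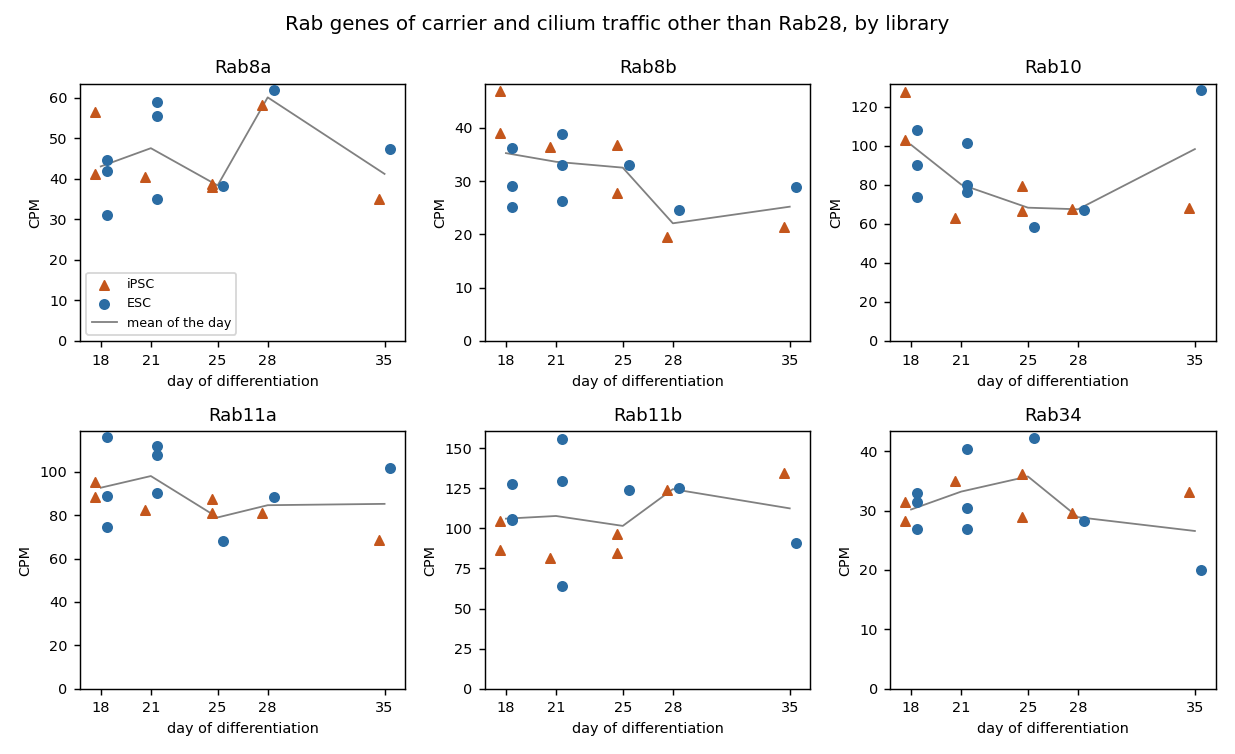
CPM of Rab8a, Rab8b, Rab10, Rab11a, Rab11b and Rab34 by library; triangles are iPSC, circles ESC, and the line joins the mean of each day. Rab8a was 35.0 and 47.3 CPM at day 35, inside its range of 31.0 to 56.4 CPM at day 18, and none of the 6 passed in limma over all 16 libraries.

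Other members with large differences at day 35 did not pass. Rab43, a Rab of the endoplasmic reticulum and Golgi, was 44.7 CPM in iPSC and 14.6 CPM in ESC at day 35, against 2.06 and 13.9 CPM in iPSC and 2.37, 5.74 and 11.8 CPM in ESC at day 18. The ESC value lies just above the highest day 18 value, and the difference was 1.97 (SE 0.82, adjusted p = 0.152). DESeq2 called it higher at day 25 and over days, and limma over days without ESC day 35 or ESC day 21 replicate 3. Rab43 overlaps Gm45140, a same-strand gene not in the gene table used here, so reads could have been split between them. Rab27a, the melanosome and secretory granule Rab, was 26.2 CPM in iPSC and 22.3 CPM in ESC at day 35, against 3.48 and 21.0 CPM in iPSC and 3.61, 11.8 and 11.6 CPM in ESC at day 18. Its difference was 1.40 (SE 0.51, adjusted p = 0.106), and 1.75 without iPSC day 18 replicate 2 (adjusted p = 0.0316).

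Among endosomal members, Rab5b of early endosome fusion was 120 CPM in iPSC and 135 CPM in ESC at day 35, against 86.7 and 132 CPM in iPSC and 72.4 to 75.7 CPM in ESC at day 18. Its difference was 0.54 (SE 0.21, adjusted p = 0.124), and 0.70 without the high library, iPSC day 18 replicate 2 (adjusted p = 0.0255). Rab15, of early and recycling endosomes, was 16.3 CPM in iPSC and 17.2 CPM in ESC at day 35, below its 19.1 to 47.4 CPM at day 18. It was 41.3 to 56.7 CPM at day 21, and the day 35 difference was -0.76 (SE 0.29, adjusted p = 0.12). It was called by DESeq2 (-0.88, adjusted p = 0.035) and without ESC day 18 replicate 2 (-0.90, adjusted p = 0.0465).

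Rab40c, which carries a SOCS box that binds ubiquitin ligase subunits, was 34.9 CPM in iPSC and 29.4 CPM in ESC at day 35, above its 18.6 to 26.0 CPM at day 18 (difference 0.48, SE 0.21, adjusted p = 0.163). Rab39, a paralog of Rab39b, was 2.31 CPM in iPSC and 2.34 CPM in ESC at day 35, below its 2.70 to 8.14 CPM at day 18, with a difference of -0.79 (SE 0.32, adjusted p = 0.137), and DESeq2 called it. Rab44, a large Rab with calcium-binding motifs and a mean of 1.70 CPM, was called only in alternatives, upward, by DESeq2 at days 25 and 35 and over days and by limma over days without ESC day 35. Among further members, Rab13 was called lower by DESeq2 at day 25. In the trend without ESC day 35, Rab9b and Rab3c were called lower and Rab40c higher. Of the 12 tested members of the early and recycling endosome and the 5 of the late endosome, lysosome and autophagy, none was called at day 35 or over days in limma, with log2 fold changes of -0.76 to 0.54 and -0.11 to 0.36 at day 35.

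For day 25 against day 18, limma called none of 54 Rab genes, where 0.0395% of all genes passed. An unadjusted limma p under 0.05 was found for 10 of 54 Rab genes and 3707 of all 15202 genes. Of 40 Rab genes, edgeR called 0, where 0.0751% of its tested genes passed. DESeq2 called 5 of the 40 (12.5%), where 10.3% of its tested genes passed. Rab28 differed by 1.03 (SE 0.28, adjusted p = 0.0904), and passed with DESeq2 (1.05, adjusted p = 0.0142) and without iPSC day 18 replicate 2 (1.23, adjusted p = 0.0288). For day 21 against day 18, limma called no Rab gene and no other gene (0% of all). Its unadjusted p was under 0.05 for 10 Rab genes and for 2854 of all 15202 genes. Both edgeR and DESeq2 called 0 Rab genes, where 0% and 1.16% of their tested genes passed. Rab28 differed by 0.88 (SE 0.26, adjusted p = 0.217).

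Between sources, limma called 0 Rab genes and 0% of all genes. Its unadjusted p was under 0.05 for 2 Rab genes and for 840 of all 15202 genes. Both edgeR and DESeq2 called 0 Rab genes and 0% of their tested genes. Rab28 was 131 ± 64.2 CPM in iPSC libraries (SD, n = 7) and 89.8 ± 38.8 CPM in ESC libraries (SD, n = 9), a difference of 0.41 at equal day (95% interval -0.02 to 0.84, adjusted p = 0.753). Sources were taken as labelled. Y-linked genes go against the label in ESC day 18 replicate 1 (Rab28 at 43.0 CPM), iPSC day 18 replicate 2 (96.3 CPM) and iPSC day 25 replicate 1 (101 CPM). Rab33a differed by -0.41 (SE 0.23, adjusted p = 0.753). Rab31, of the route from the trans-Golgi to endosomes, differed by -0.52 (SE 0.55, adjusted p = 0.799), and the sign turned to 0.05 when either day 35 library was left out. The trend over days did not differ detectably between iPSC and ESC for any Rab gene in limma (0% of all genes called). Here 2 Rab genes and 1233 of all 15202 genes had an unadjusted p under 0.05. Both edgeR and DESeq2 called 0 Rab genes, where 0% and 0.462% of their tested genes passed. For Rab28 the difference in trend was 0.02 per day (95% interval -0.06 to 0.11, adjusted p = 0.879).

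Some Rab genes were high in ESC day 35, the library with the glial and bipolar markers. Rab31 was 2.25 CPM in iPSC and 56.0 CPM in ESC at day 35, Rab3c was 2.20 and 53.1 CPM, and Rab27b, a secretory Rab, was 2.64 and 14.5 CPM. Rab25, an epithelial recycling Rab, was 0.211 CPM in iPSC and 6.81 CPM in ESC at day 35, Rab7b was 0 and 3.92 CPM, and Rab32, of lysosome-related organelles, was 0.124 and 2.55 CPM. Beside these, the glutamate transporter Slc1a3 was 8.11 CPM in iPSC and 241 CPM in ESC, the water channel Aqp4 5.67 and 222 CPM, and the bipolar receptor Grm6 1.23 and 78.8 CPM. The part of these cells in the Rab values was not tested. Rab31 and Rab3c were also high in the low-Nrl libraries at day 18, at 27.8 CPM and 53.8 CPM in iPSC replicate 1 and 27.8 CPM and 45.1 CPM in ESC replicate 1.

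The proteins that load, switch off and answer to Rabs held calls in each of 5 lists. Of 104 tested genes in those lists, 17 were called at day 35, where 1144 of all 15202 genes (7.53%) were. Over days 19 of the 104 were called, where 1840 of all 15202 genes (12.1%) were. The calls rest on few libraries, and the share of all genes called fell in the same fits. The day 35 calls were lost without iPSC day 35, a fit that leaves 1 library at that day. In the trend without iPSC day 35, 6 of the 19 were kept, where 3.66% of all genes passed. Without the low-Nrl pair 3 of the 17 and 12 of the 19 were kept, where 0.993% and 5.26% of all genes passed. Other single libraries left 7 to 17 of the 17 and 13 to 19 of the 19.

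Of the 13 rhodopsin carrier partners, 3 rose and none fell at day 35, with a list median of 0.50 beside 0.05 for all genes. Stx3, the photoreceptor syntaxin with which carriers fuse, was 947 CPM in iPSC and 477 CPM in ESC at day 35, against 37.3 and 312 CPM in iPSC and 30.4 to 155 CPM in ESC at day 18 (log2 fold change 2.98, SE 0.72, adjusted p = 0.0279). Optn, optineurin, which binds Rab8, was 28.4 CPM in iPSC and 27.8 CPM in ESC at day 35, against 5.76 to 15.0 CPM at day 18 (1.56, SE 0.35, adjusted p = 0.0229). For both genes the day 35 libraries lie above all of day 18.

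Of 29 exchange factors, 2 rose and 2 fell at day 35. Rabgef1, the Rab5 exchange factor Rabex-5, averaged 143 ± 86.6 CPM at day 35 (SD, n = 2) and 23.4 ± 7.31 CPM at day 18 (SD, n = 5), a rise of 2.42 (SE 0.43, adjusted p = 0.00922). Dennd4a, an exchange factor for Rab10, rose by 0.92 (SE 0.23, adjusted p = 0.0297). Dennd1c, an exchange factor for Rab35, fell by 2.12 (SE 0.58, adjusted p = 0.0436), and Hps1, part of the exchange factor for Rab32 and Rab38, fell by 1.14 (SE 0.28, adjusted p = 0.0285).

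Of 29 GTPase-activating proteins, 4 rose and 1 fell. Usp6nl, which acts on Rab5 in cultured human cells, averaged 125 ± 29.3 CPM at day 35 (SD, n = 2) and 46.2 ± 9.14 CPM at day 18 (SD, n = 5), a rise of 1.39 (SE 0.25, adjusted p = 0.00987). Tbc1d30, which acts on Rab8 at the cilium in cultured human cells, averaged 108 ± 58.1 CPM and 34.8 ± 9.59 CPM at those days, a rise of 1.51 (SE 0.31, adjusted p = 0.0165). Tbc1d8 rose by 2.55 (adjusted p = 0.0475) and Rabgap1l by 1.53 (adjusted p = 0.0433), while Tbc1d16, which acts on Rab4, fell by 1.43 (adjusted p = 0.0353).

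Of 27 tested effectors, 3 rose and 1 fell at day 35. Bicd2, the dynein adaptor of Rab6, averaged 91.6 ± 10.4 CPM at day 35 (SD, n = 2) and 42.2 ± 8.56 CPM at day 18 (SD, n = 5), a rise of 1.10 (SE 0.21, adjusted p = 0.0128). Sytl1, a Rab27 effector, rose by 1.26 (adjusted p = 0.0313) and the inositol phosphatase Ocrl by 0.88 (adjusted p = 0.0488). Mical1, an actin-oxidising enzyme that binds Rabs, fell by 1.93 (SE 0.41, adjusted p = 0.0187). Over days its relative Inpp5b in the Ocrl family also passed, upward by 0.05 per day (adjusted p = 0.0233). Of the 8 genes for lipid attachment and recycling, 1 fell at day 35: Chml, the escort protein Rep2, averaged 6.38 ± 4.00 CPM at day 35 (SD, n = 2) and 20.3 ± 6.90 CPM at day 18 (SD, n = 5), a fall of 1.57 on the log2 scale (SE 0.41, adjusted p = 0.0358).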

How the data were processed

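PolyA RNA from 16 sorted samples was sequenced after a stranded library kit, per the labels' protocols. The submitters' processing notes name Trimmomatic 0.36, kallisto 0.42.5, edgeR and GRCm38.p4; per the submitters' processing notes these made the files. How strand was used is not given in the sources used here. The deposited gene table is not on the CPM scale: its values, from -1.0 to 198, equal the squared log2(CPM + 1) minus 1, and CPM was recovered as 2 to the power of the square root of (value + 1), minus 1. Once 1 factor per library was removed, the recovered CPM kept a constant ratio to the deposited TPM within 0.0001 (log2) in 8488 of 8688 genes. The authors' estimated counts and TPM per transcript were deposited for 65535 transcripts. Genes were used whole where that ratio was constant, which includes 43 Rab genes. One estimated count was worth 0.0372 to 0.216 CPM, from 4637570 to 26879539 estimated counts per library. These totals were rebuilt from the estimated counts and recovered CPM of genes with a constant ratio.

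limma 3.58.1 with trend was fitted in R 4.3.3 on log2(CPM + 1) for 15202 genes at 1 CPM or more in at least 2 libraries, with source and day (factor or number) over all 16 libraries, and p-values were Benjamini-Hochberg adjusted over all genes at 0.05. Fold changes are on that log2 scale, which understates low genes. Day contrasts take the spread from all libraries, since days 28 and 35 have 1 library per source. Slopes are per day from day 18, and their difference comes from a source by day term. The Rab genes, lists, named genes and tests were chosen with earlier results of these data known. The naming rule took Rab8a, Rab11a, Rab28 and their paralogs, every called Rab, the 8 largest rises and falls at day 35 and the 3 largest source differences at a mean of 5 CPM or more. It was followed for up to 6 called genes of each list. Rab44 and the 6 genes given for ESC day 35 were named after their values were seen. edgeR 4.0.16 and DESeq2 1.42.0 ran on rounded gene sums of estimated counts of at least 10 in 2 libraries. Other alternatives were filters, scalings, a pseudocount of 0.1, a replicate block and each library left out. Leaving out the low-Nrl pair or the pair of day 18 libraries labelled ESC 1 and iPSC 2 (Y-linked genes), and the transcript tests, were chosen after seeing the data. The fits were tested on simulated data. Some called genes of the partner lists are counted but not reported here by name.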

Additional observations from a re-analysis of the deposited data

Results flagged for a closer look

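Within day 18 (5 libraries) and day 21 (4 libraries), 3 values of the 20 named Rab genes lay far from the others of their day by Dixon's gap test, among 40 groups of values tested, and chance alone gives about 1 in 20. Rab28 in iPSC day 18 replicate 2 was 96.3 CPM, where the other 4 day 18 libraries lay between 43.0 and 51.2 CPM. Rab5b in the same library was 132 CPM, where the others lay between 72.4 and 86.7 CPM. That library is 1 of the 3 whose Y-linked genes go against their source, and its Nrl was 881 CPM. Rab31 in ESC day 21 replicate 1 was 15.0 CPM, where the other day 21 libraries lay between 2.77 and 4.02 CPM.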

How the results depend on the processing

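Counts of called Rab genes moved by over 1.5 times as follows. At day 35 against day 18 the count of 3 became 7 with DESeq2, 7 with a replicate block and 0 without the low-Nrl pair, where 16.9%, 19.4% and 0.993% of all genes passed. At day 28 the count of 1 became 2 with CPM scaled to equal sums, 0 with edgeR, 2 with DESeq2, 5 with the block and 0 without the low-Nrl pair. The shares of all tested genes there were 0.809%, 0.397%, 6.29%, 15.9% and 0.00662%. At day 25 the 0 became 5 with DESeq2 and 3 with the block, where 10.3% and 14.2% of all tested genes passed. The trend's 6 became 3 with no filter on low values, where 6.15% of all tested genes passed. Leaving out 1 library gave 0 to 5 Rab genes at day 35, 0 to 3 at day 28, 0 to 3 at day 25, 0 to 1 at day 21 and 2 to 12 for the trend. Source and slope difference kept 0 throughout. For ESC days 18 and 21, deviations of same-numbered libraries correlated by 0.31, 0.06 and 0.25, and not every library matched its own number best, while iPSC days 18 and 25 gave 0.38 for replicate 1 minus 2. The ESC numbers do not meet the bar for pairing, so the numbers were taken as names. The block called 2943 genes at day 35, against 1144 without it, and 2159 at day 25, against 6. With it Rab27a (1.86, adjusted p = 0.019), Rab43 (2.40, 0.0405), Rab3a (1.05, 0.0487) and Rab33a (-1.25, 0.0423) also passed at day 35, Rab28 (1.18, 0.0133), Rab27a and Rab43 at day 25, Rab28, Rab3a, Rab35 and Rab3c at day 28 and Rab27a, Rab3a, Rab40c and Rab43 over days, and Rab3d did not pass over days (adjusted p = 0.0654). Signs turned for Rab11a at day 35 with the block (0.047) and without iPSC day 35 (0.14, range over single libraries -0.39 to 0.14), and in its trend with the block (0.000148). They turned for Rab11b with equal sums (-0.068) and without iPSC day 35 (-0.33, range -0.33 to 0.52), for Rab31 at day 35 without iPSC day 35 (1.67, range -2.51 to 1.67) or the low-Nrl pair (0.14) and by source without either day 35 library (0.054, range -0.87 to 0.054), and for Rab3c without iPSC day 35 (1.08, range -3.18 to 1.08). Rab8a turned at day 35 without iPSC day 18 replicate 2 (0.08), iPSC day 35 (0.18, range -0.29 to 0.18) or the Y-linked pair (0.13). Its trend turned with equal sums (-0.00497), the block (-0.00213) and without ESC day 18 replicate 3 (-0.00245), ESC day 28 (-0.00218) or iPSC day 28 (-0.000293), with a range of -0.00245 to 0.0157. Equal sums moved the median of all genes at day 35 to -0.09, against 0.05. Of the 1472 values for named genes and transcripts under alternatives, 1256 kept direction and call, 177 lost and 21 gained a call, and 18 turned; the cause was not tested. Genes near 1 CPM rest on few reads at the lowest depth.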
